A study of Danio rerio with 6 samples.

Results

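The genes of B cell receptor signaling other than the immunoglobulins were followed in the olfactory epithelium of adult zebrafish (Danio rerio). The set was given as 6 gene names, cd79a, cd79b, cd40, blnk, pax5 and btk, and a gene was taken when its name in the deposited table was one of them. By this rule 5 of the 33737 genes in the table were found, and cd79b was not analysed here. All 5 passed the filter on low counts and were tested together with the other genes, 20628 in all. RNA was sequenced from 3 libraries of PEA imprinted fish and 3 control libraries. PEA is phenylethyl alcohol, an odorant with the scent of roses. PEA fish received it every day over the 3 weeks of early development, and control fish received distilled water in its place. Both groups were of an AB derived wild type line, were kept without the odorant after those weeks and were collected at an age of 6 months per the sample labels. An older age is given in the paper for the adults of the study as a whole. Several fish were used per experimental group, and neither source says whether a library pooled them. The exposure was done in biological triplicate, so that each p-value measures the spread between 3 libraries per group.

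On a B cell, antibody in the membrane recognizes antigen but has almost no tail inside the cell. It signals through the partner proteins CD79a and CD79b, whose tails are phosphorylated by the kinase Lyn and then hold the kinase Syk. Syk phosphorylates the adaptor BLNK, which brings together the kinase BTK and phospholipase C gamma 2, and calcium release and NF-kB activation follow. CD40 receives the second signal from helper T cells. PAX5 is the transcription factor that keeps the B cell identity and switches on CD79a and BLNK. These roles are best known from mammals. CD79a is restricted to the B lineage, whereas BTK, BLNK and CD40 are also found in macrophages or other antigen presenting cells, and PAX5 in the developing brain.

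Counts assigned to genes came to 43590575 to 46153505 in the PEA libraries and 45153814 to 49085973 in the control libraries. Levels are given in CPM, which are counts over the TMM-adjusted library size, and 3 counts equal 0.0586 to 0.0697 CPM. The label of the tissue was checked with markers of olfactory sensory neurons, of which 9 of 14 listed names were in the table and 0 were at zero. Their summed level was 1966 to 2469 CPM in PEA libraries and 2061 to 2155 CPM in control libraries. Markers of macrophages and dendritic cells summed to 6119 to 6997 CPM in PEA libraries and 5818 to 6662 CPM in control libraries over 11 genes, with none at zero, led by the antigen presentation gene cd74a. Of these 11 genes spi1a, spi1b and irf8 are also B lineage factors. Most of the sum came from cd74a and cd74b. Their means were 3828 and 1963 CPM in PEA libraries and 3631 and 1945 CPM in control libraries. How much of their level came from B cells was not tested. Markers of T and NK cells summed to 211 to 254 CPM in PEA libraries and 210 to 253 CPM in control libraries over 11 genes, again with none at zero. Neutrophil markers (10 genes) summed to 208 to 248 CPM in PEA libraries and 194 to 254 CPM in control libraries, and erythroid markers (6 genes) to 144 to 169 CPM in PEA libraries and 122 to 183 CPM in control libraries. None of these 5 lists separated the groups. The 5 immunoglobulin constant genes, chosen with their values known, did. They summed to 25.3 to 51.2 CPM in PEA libraries and 10.1 to 18.3 CPM in control libraries. Of them 4 of 5 had an edgeR p under 0.05 before adjustment, against 1.66% of all genes tested, and 0 were called. The heavy chain gene ENSDARG00000096355 made up most of the sum, with means of 34.6 CPM in PEA and 13.1 CPM in control libraries. The groups of ighd overlapped. The part of cells other than B cells in the levels of btk, blnk and cd40 was not tested. Since whole tissue was sequenced, a different number of B cells and a different amount of RNA per B cell cannot be told apart.

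None of the 5 genes differed between PEA and control libraries by the test over all genes, although the log2 fold change of each was above 0. With edgeR's quasi-likelihood test and Benjamini-Hochberg adjustment the count of members called was 0, as was the count over all 20628 genes (0% called), and the adjusted p of each member was 1.00. At an unadjusted p under 0.05 the count of members was 0, where 1.66% of all genes tested passed, 342 genes. DESeq2 called 0 members as well, and 0.0184% of its genes, 5 genes. The log2 fold changes of the members lay between 0.14 and 0.42 with a median of 0.20. Over all genes tested the median was 0.00 and 48.5% lay above 0. The 5 genes were picked by their names as one pathway and share the same 6 libraries, so their common direction is a description of these libraries.

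The receptor subunit cd79a (ENSDARG00000037473), the only B lineage restricted signaling subunit measured here, had 54, 65 and 66 counts in PEA 1 to 3 and 56, 49 and 67 counts in control 1 to 3. In CPM these were 1.23, 1.51 and 1.40 in PEA libraries and 1.30, 0.958 and 1.35 in control libraries. The groups overlapped, with PEA 1 below control 1 and control 3. The means were 1.38 ± 0.143 CPM in PEA and 1.201 ± 0.212 CPM in control libraries (SD, n = 3 each). On the log2 scale PEA over control was 0.20 (SE 0.23, edgeR adjusted p = 1.00), with a 95% interval of -0.33 to 0.73, or 0.795-fold to 1.66-fold. With 3 libraries per group at these counts, differences within this interval could not be told apart. The spread of its 6 counts was 1.34 times that of counting noise, measured as the chi-square statistic over its 5 degrees of freedom. Without control 2 the log2 fold change was 0.06.

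The adaptor blnk (ENSDARG00000042722), which links Syk to BTK, had 386, 304 and 381 counts in PEA 1 to 3 and 275, 345 and 345 counts in control 1 to 3. Scaled to library size these were 8.77, 7.07 and 8.07 CPM in PEA libraries and 6.37, 6.74 and 6.93 CPM in control libraries. It was the member whose groups did not overlap, and the gap was narrow, with PEA 2 just above control 3. Of all genes tested, 2.56% had every PEA library above every control library and 2.94% every PEA library below every control library. The means were 7.97 ± 0.858 CPM in PEA and 6.68 ± 0.284 CPM in control libraries (SD, n = 3 each). This gave a log2 fold change of 0.25 (SE 0.14, edgeR unadjusted p = 0.0976, adjusted p = 1.00), with a 95% interval of -0.06 to 0.56. It lay between 0.18 and 0.33 over the fits that left out 1 library each.

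The kinase btk (ENSDARG00000004433), whose loss in humans stops B cell development, had 636, 618 and 561 counts in PEA 1 to 3 and 519, 643 and 616 counts in control 1 to 3. Its levels were 14.5, 14.4 and 11.9 CPM in PEA libraries and 12.0, 12.6 and 12.4 CPM in control libraries. PEA 1 and PEA 2 were above all control libraries, and PEA 3 was the lowest of all 6. The means were 13.6 ± 1.46 CPM in PEA and 12.3 ± 0.275 CPM in control libraries (SD, n = 3 each). The log2 fold change of 0.14 (SE 0.12, edgeR adjusted p = 1.00) had the narrowest 95% interval of the members, -0.13 to 0.41, or 0.913-fold to 1.33-fold. Its 6 levels spanned 1.22-fold from lowest to highest.

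The transcription factor pax5 (ENSDARG00000037383) had 11, 5 and 14 counts in PEA 1 to 3 and 5, 10 and 13 counts in control 1 to 3. These correspond to 0.250, 0.116 and 0.296 CPM in PEA libraries and 0.116, 0.195 and 0.261 CPM in control libraries, not far above the level of 3 counts. The groups overlapped over nearly their whole range. The means were 0.221 ± 0.0936 CPM in PEA and 0.191 ± 0.0728 CPM in control libraries (SD, n = 3 each). The log2 fold change came to 0.20 (SE 0.48, edgeR adjusted p = 1.00), and its 95% interval of -0.89 to 1.29 left a difference of 2.45-fold in reach. Without PEA 3 it was -0.07 and without control 1 it was -0.03, so no direction can be given for pax5.

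The costimulatory receptor cd40 (ENSDARG00000054968) had the largest log2 fold change of the members with all 6 libraries, but not without control 1. It had 505, 368 and 503 counts in PEA 1 to 3 and 221, 431 and 463 counts in control 1 to 3. Its levels were 11.5, 8.55 and 10.7 CPM in PEA libraries and 5.12, 8.43 and 9.30 CPM in control libraries. Control 1 was far below the other libraries, and PEA 2 lay between control 2 and control 3. The means were 10.2 ± 1.51 CPM in PEA and 7.62 ± 2.204 CPM in control libraries (SD, n = 3 each). The log2 fold change came to 0.42 (SE 0.23, edgeR unadjusted p = 0.0954, adjusted p = 1.00), with a 95% interval of -0.09 to 0.94. Without control 1 it was 0.21, below cd79a at 0.26 and blnk at 0.23. The spread of its 6 counts was 24.1 times that of counting noise, against 4.64 times for btk and 5.06 times for blnk.

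**Figure D1:**
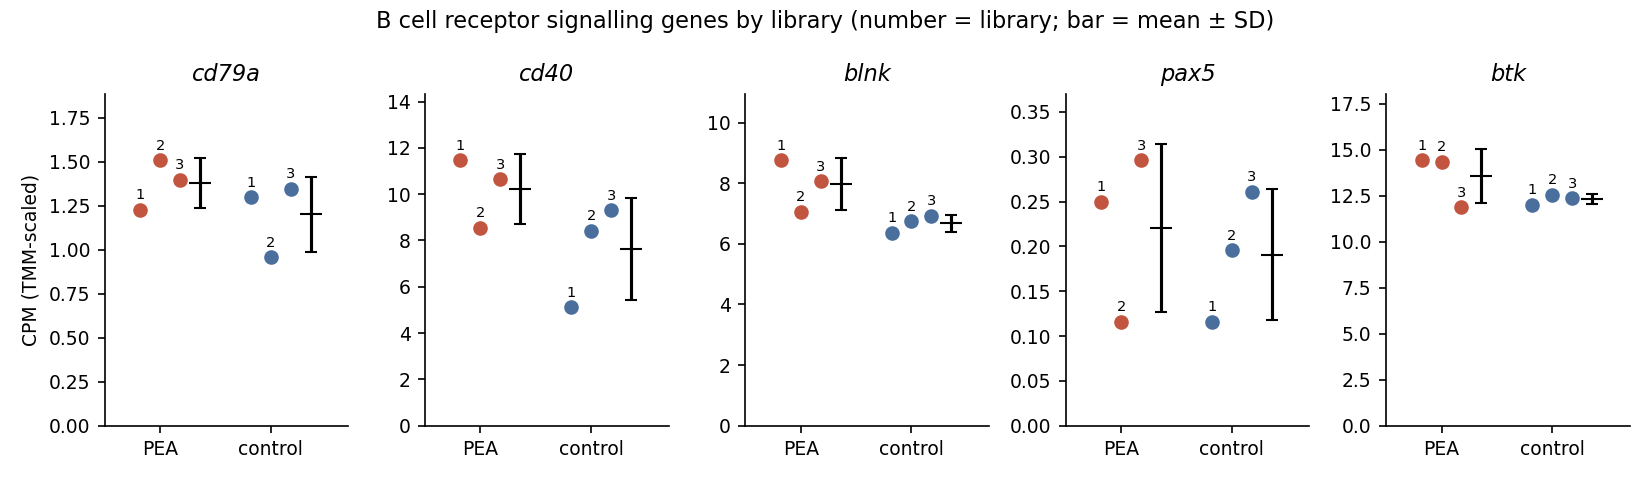
Level of each of the 5 genes in CPM on a linear axis from 0, with 1 point per library (numbered 1 to 3) for PEA and control, and the mean ± SD (n = 3) beside each group. The groups overlap in every panel except blnk, and control 1 is the low point of cd40 at 5.12 CPM.

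The members were then set beside each other in the fits that left out 1 library each. The log2 fold changes of cd79a, cd40, blnk and btk stayed above 0 in all 6 of these fits, within 0.06 to 0.29 for cd79a, 0.21 to 0.59 for cd40, 0.18 to 0.33 for blnk and 0.09 to 0.23 for btk, and no fit called any of them. That of pax5 ran from -0.07 to 0.50. The median over the members was 0.20 with all libraries, 0.21 without control 1, where cd40 and pax5 were lower and cd79a was higher than with all libraries, and 0.12 with only the libraries numbered 2 and 3.

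**Figure D2:**
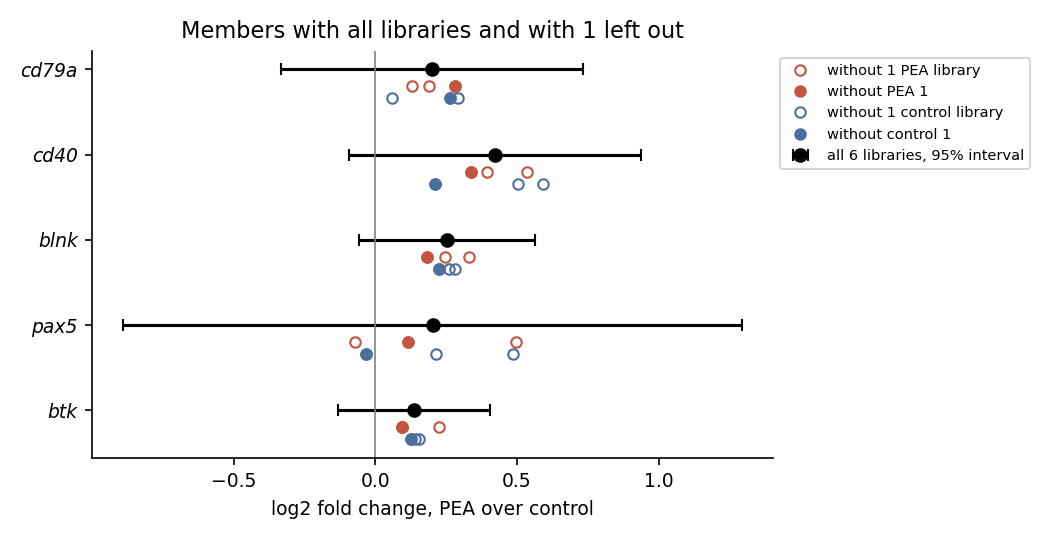
Log2 fold change of PEA over control for each gene, with all 6 libraries and its 95% interval (black), and without 1 PEA (red) or 1 control (blue) library, where filled colored points leave out PEA 1 or control 1. Every interval includes 0, the point of cd40 without control 1 is its lowest at 0.21, and pax5 crosses 0.

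The wider pathway was described with 7 lists of genes that act beside the members. How much of the level of these genes came from B cells was not tested. They held 110 rows of the table, 4 of them members, and 105 were tested. Of these 105 genes 0 were called in either direction by edgeR or DESeq2, and 0 reached an edgeR p under 0.05 before adjustment, against 1.66% of all genes tested. Their median log2 fold change was 0.04, with 62 genes above 0 and 43 below. Every PEA library was above every control library in 6 of the 105 (5.71%, against 2.56% of all genes tested), namely blnk, sh3bp2, traf3, tnfsf13b, cd81b and irf8. Every PEA library was below every control library in 1 gene, lcp2b (0.952%, against 2.94%).

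Of the kinases at the receptor 0 of 9 tested genes were called. Their median log2 fold change was 0.06, and 6 lay above 0. Lyn starts the signal by phosphorylating the CD79 tails, and the gene lyn was at 23.0, 19.8 and 21.9 CPM in PEA libraries and 19.4, 19.3 and 21.5 CPM in control libraries, a log2 fold change of 0.10 (SE 0.10). The next kinase, syk, was at 8.39, 5.21 and 6.82 CPM in PEA libraries and 4.47, 6.55 and 7.11 CPM in control libraries. Its log2 fold change of 0.17 (SE 0.23) was 0.00 without control 1, the lowest library for syk as it was for cd40. The Src family kinases fynb and yes1 were at 0.30 (SE 0.29) and -0.06 (SE 0.08) on the log2 scale. The relative of btk in T cells, itk, was at 0.04 (SE 0.17). The inhibitory kinase gene csk was listed at 0 in all 6 libraries. The annotation release and multiple-alignment settings are not known, so this value does not show that csk was absent.

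Adaptors and second messengers downstream of the kinases had a median log2 fold change of 0.03 over 25 tested genes, with 15 above 0 and 0 called. Phospholipase C gamma 2, the enzyme that BTK activates, showed little spread, with plcg2 at 33.8, 32.2 and 30.4 CPM in PEA libraries and 28.7, 31.4 and 33.5 CPM in control libraries and a log2 fold change of 0.04 (SE 0.10). The adaptor sh3bp2 was at 7.18, 6.81 and 7.33 CPM in PEA libraries and 6.23, 6.28 and 6.07 CPM in control libraries, a log2 fold change of 0.20 (SE 0.12). The gene lcp2b, a copy of the gene for the adaptor that stands in the place of BLNK in T cells, was at 1.09, 1.19 and 1.16 CPM in PEA libraries and 1.39, 1.43 and 1.49 CPM in control libraries, a log2 fold change of -0.32 (SE 0.20). The groups of sh3bp2 and lcp2b did not overlap, in opposite directions, and neither passed the test. Of all genes tested, 2.56% had every PEA library above every control library and 2.94% every PEA library below. The more abundant copy of lcp2b, lcp2a, had overlapping groups and a log2 fold change of -0.07 (SE 0.12). It was at 23.2, 18.5 and 19.0 CPM in PEA libraries and 23.5, 20.3 and 20.2 CPM in control libraries. The inositol trisphosphate receptor itpr1b and the adaptor grb2b were at -0.17 (SE 0.14) and 0.09 (SE 0.10). The other copy of itpr1b, itpr1a, lay the other way at 0.07 (SE 0.26).

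The branch to NF-kB had the highest median of the lists, 0.09 over 14 tested genes. Of these genes 13 were above 0, where 48.5% of all genes tested were, and 0 were called. Control 1 was the lowest library for 7 of the 14. The median was 0.04 with only the libraries numbered 2 and 3. Most of the log2 fold changes were small, as for protein kinase C beta (prkcbb, 0.09, SE 0.08) and the NF-kB subunit relb (0.11, SE 0.11). The feedback inhibitors of NF-kB varied more. The ubiquitin-editing gene tnfaip3 was at 3.93, 1.72 and 3.52 CPM in PEA libraries and 1.62, 2.54 and 2.65 CPM in control libraries (log2 fold change 0.43, SE 0.33), and the I kappa B alpha gene nfkbiaa was at 67.8, 127 and 111 CPM in PEA libraries and 80.0, 81.5 and 82.4 CPM in control libraries (0.33, SE 0.20). With 1 library left out tnfaip3 lay between 0.21 (without PEA 1) and 0.71 (without PEA 2), and nfkbiaa between 0.14 (without PEA 2) and 0.55 (without PEA 1). The second I kappa B alpha gene, nfkbiab, was at 826, 1114 and 359 CPM in PEA libraries and 1117, 229 and 247 CPM in control libraries. PEA 1, PEA 2 and control 1 were thus far above PEA 3, control 2 and control 3. The log2 fold change of nfkbiab was 0.53 (SE 0.63), and 1.69 without control 1, a fit that kept both high PEA libraries. No direction can be given for this gene.

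In the CD40 branch 0 of 8 tested genes were called. Every PEA library was above every control library in 2 of the 8, traf3 and tnfsf13b, where 2.56% of all genes tested had this. The groups of cd40 overlapped. TRAF3 restrains the non-canonical NF-kB pathway until CD40 is engaged, and traf3 was at 18.7, 18.5 and 22.6 CPM in PEA libraries and 15.3, 17.3 and 18.1 CPM in control libraries (log2 fold change 0.24, SE 0.12, edgeR unadjusted p = 0.0818, adjusted p = 1.00). The B cell survival factor BAFF is encoded by tnfsf13b, which was at 4.11, 3.65 and 4.07 CPM in PEA libraries and 3.52, 3.26 and 2.99 CPM in control libraries (0.27, SE 0.16). The ligand of CD40 is a T cell product. Its gene cd40lg was at 2.95, 2.46 and 3.58 CPM in PEA libraries and 2.29, 3.66 and 3.90 CPM in control libraries. Like cd40, cd40lg was lowest in control 1. Its log2 fold change was -0.13 (SE 0.25) and its groups overlapped. The sign was not kept over the fits that left out 1 library each, so no direction can be given for cd40lg. The difference between ligand and receptor was not tested. Of 8 genes tested in this branch 4 were above 0 and the median was 0.04, against -0.09 without control 1 and -0.18 with only the libraries numbered 2 and 3. The adaptors traf2a and traf6 were at 0.13 (SE 0.20) and -0.11 (SE 0.16).

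Inhibitors of the receptor had a median log2 fold change of -0.05 over 15 tested genes, of which 6 were above 0 and 0 were called. The lipid phosphatase gene inpp5d, the ubiquitin ligase gene cblb and the B cell inhibitory receptor cd22 (ENSDARG00000053005) were at -0.13 (SE 0.10), -0.19 (SE 0.16) and -0.37 (SE 0.34). These values moved with single libraries, with inpp5d at -0.06 without control 3, cblb at -0.02 without PEA 2, and cd22 at -0.85 without PEA 1 and -0.13 without PEA 2. A second row named CD22 (ENSDARG00000039096) was at -0.06 (SE 0.29). The median of the list was -0.16 with only the libraries numbered 2 and 3. The tetraspanin gene cd81b was at 4.07, 4.46 and 3.75 CPM in PEA libraries and 3.34, 3.56 and 3.38 CPM in control libraries (0.26, SE 0.16). Its other copy, cd81a, was far more abundant and its groups overlapped. It was at 308, 297 and 259 CPM in PEA libraries and 276, 296 and 259 CPM in control libraries (0.06, SE 0.10).

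Transcription factors of the B lineage had a median of 0.04 over 23 tested genes, with 13 above 0 and 0 called. Many of them serve other cells of this tissue as well. The factor EBF1 switches on the CD79a gene in B cells and was also found in olfactory neurons of mammals, and ebf1b was at 24.1, 26.1 and 28.5 CPM in PEA libraries and 22.4, 23.3 and 25.0 CPM in control libraries (log2 fold change 0.16, SE 0.10). The myeloid and B cell factor spi1a was at -0.19 (SE 0.11) and the progenitor factor myb at 0.22 (SE 0.13). The gene irf4a, for a factor of activated B cells and plasma cells, was at -0.42 (SE 0.35). Its other copy, irf4b, lay the other way at 0.30 (SE 0.25), so no direction can be given for this factor. The list of B cell development and antibody diversification had a median of 0.00 over 11 tested genes, with 5 above 0 and 0 called. The recombinase genes rag1 and rag2, which are also active in olfactory sensory neurons of zebrafish, were at -0.06 (SE 0.12) and -0.18 (SE 0.12). The gene dntt, for the enzyme that adds bases at the joints of recombined antigen receptor genes, lay below the filter with 0, 1 and 2 counts in PEA 1 to 3 and 0, 1 and 0 counts in control 1 to 3, so no difference was detectable at this depth. The B cell homing receptor CXCR5 was at -0.13 (SE 0.23), swap70a at 0.13 (SE 0.11), and cxcr4b at 0.32 (SE 0.37). Like nfkbiab, cxcr4b was high in PEA 1, PEA 2 and control 1. Its levels were 131, 143 and 70.0 CPM in PEA libraries and 146, 72.2 and 57.2 CPM in control libraries.

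**Figure D3:**
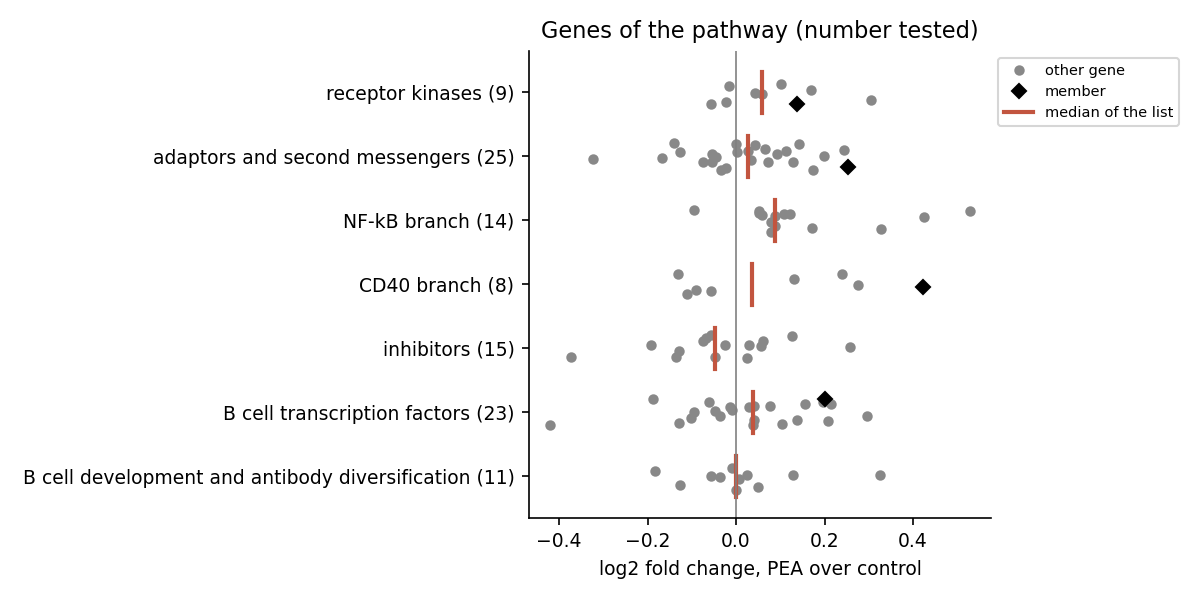
Log2 fold change of PEA over control for each tested gene of the 7 pathway lists, with the number tested in parentheses, members as black diamonds and the median of each list as a red line. The medians lie between -0.05 and 0.09, and cd40 stands at the right end of its list at 0.42.

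Control 1 was the lowest library for 3 of the 5 members, cd40, blnk and pax5 (for pax5 level with PEA 2 at 5 counts each), and this pattern went beyond them. Of the 105 pathway genes tested, 44 had their lowest level in control 1 (41.9%), where 22.5% of all genes tested did. PEA 2 came next, as the lowest library for 24.8% of the pathway genes and 18.4% of all genes. The remaining libraries were each lowest for a smaller share of the pathway genes than of all genes. These shares were 7.62% and 16.1% for PEA 1, and 8.57% and 16.7% for PEA 3. They were 6.67% and 10.7% for control 2, and 10.5% and 15.5% for control 3. PEA 1 was the highest library for 29.5% of the pathway genes and 15.5% of all genes. Among the transcription factors control 1 was lowest in 13 of 23. The pattern was not particular to the pathway lists. The T and NK cell markers runx3, zap70, itk (also in the kinase list), ccr7, il2rb and cd28 were lowest in control 1 as well. Of the same markers, gata3 was lowest in PEA 1, and tox, cd4, cd8a and foxp3a in PEA 2. Without control 1 the median of the 105 genes was -0.02, and those of the lists were -0.0013 for the kinases, -0.02 for the adaptors, -0.07 for the transcription factors and 0.07 for the NF-kB branch. The pattern was seen after the values were known and carries no test. The glucocorticoid target gene fkbp5 also set libraries apart, with its highest levels in PEA 1 and control 1. It was at 1621, 311 and 322 CPM in PEA 1 to 3 and 1414, 99.3 and 101 CPM in control 1 to 3. The relation of fkbp5 to the levels of the members was not tested. With only the libraries numbered 2 and 3, the log2 fold changes were 0.34 for cd79a, 0.12 for cd40, 0.15 for blnk, 0.08 for btk and -0.12 for pax5, and 0 members were called.

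**Figure D4:**
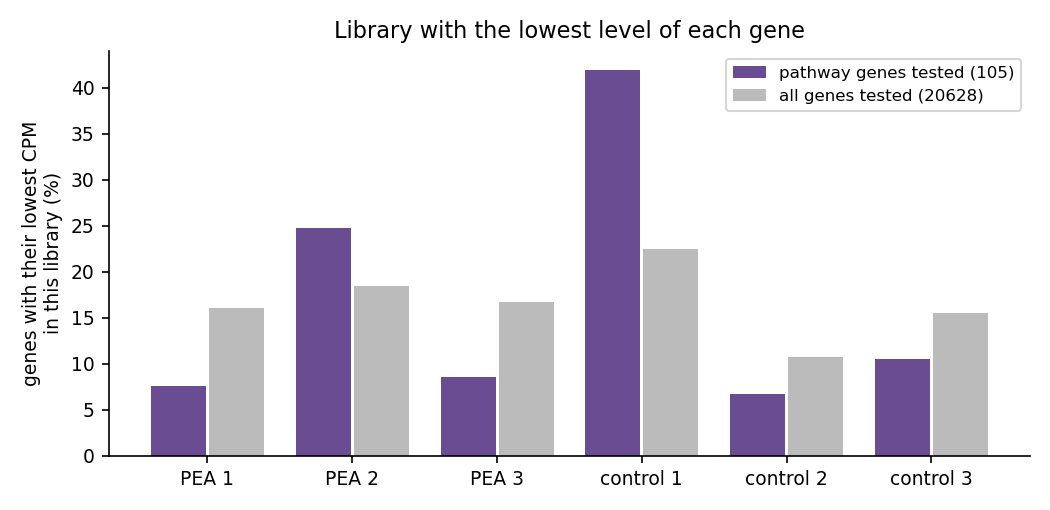
Percentage of genes that have their lowest CPM in each library, for the 105 pathway genes tested (purple) and all 20628 genes tested (gray). Control 1 is the lowest library for 41.9% of the pathway genes and 22.5% of all genes.

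Immunoglobulin reads were set over cd79a reads of the same library, a ratio that does not depend on the scaling of libraries. ENSDARG00000096355, named ighv1-4 in the deposited table and ighm, the heavy chain of IgM, in a current gene name table, had 29.6, 30.7 and 15.0 counts per cd79a count in PEA 1 to 3 and 12.0, 8.78 and 11.4 in control 1 to 3. All PEA libraries were above all control libraries in this ratio, with PEA 3 nearest to them. The log2 difference was 1.17 (SE 0.36, exact permutation test, 2-sided, p = 0.10, which is the smallest p that 3 libraries against 3 allow), and 0.99 to 1.51 with each library left out in turn. For the light chain gene igl3c3 the ratio was 1.59, 1.05 and 0.621 in PEA libraries and 0.268, 0.245 and 0.358 in control libraries, a log2 difference of 1.82 (SE 0.43, exact permutation test, 2-sided, p = 0.10). The other 3 immunoglobulin constant genes of the list were measured in the same way. The ratio of the light chain gene igic1s1 was 0.667, 0.646 and 0.621 in PEA libraries and 0.196, 0.265 and 0.433 in control libraries (log2 difference 1.19, SE 0.33, exact p = 0.10). That of ighz, for the heavy chain of IgZ, was 1.296, 1.246 and 1.258 in PEA libraries and 0.696, 0.878 and 1.104 in control libraries (0.53, SE 0.19, exact p = 0.10). For ighd, the heavy chain of IgD, it was 0.222, 0.231 and 0.606 in PEA libraries and 0.179, 0.347 and 0.299 in control libraries, so that the groups overlapped (0.25, SE 0.56, exact p = 0.80). Adjusted over these 5 ratios, the p-values were 0.125 for 4 genes and 0.80 for ighd. The 5 ratios share the same cd79a counts, and the genes were chosen with their values known. These p-values therefore describe the ratios and are no evidence of a difference. The log2 fold changes of the genes themselves had 95% intervals of 0.68 to 2.12 for ENSDARG00000096355 and 1.14 to 2.94 for igl3c3. The intervals were 0.43 to 2.12 for igic1s1, 0.07 to 1.31 for ighz and -0.49 to 1.69 for ighd. That of cd79a ended at 0.73, so only the interval of igl3c3 lay wholly above it. Setting intervals side by side is no test of a difference. None of the 5 was called by edgeR (adjusted p = 1.00 each). DESeq2 called ENSDARG00000096355 and igl3c3 (adjusted p = 0.00761 and 0.0267).

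**Figure D5:**
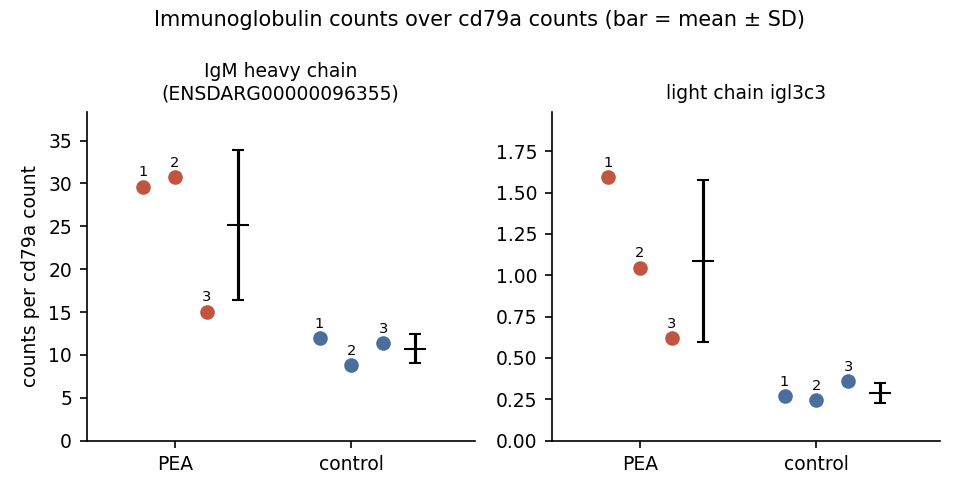
Counts of the IgM heavy chain (left) and of the light chain igl3c3 (right) per count of cd79a on linear axes from 0, with 1 point per library and the mean ± SD (n = 3) of PEA and control. PEA libraries lie at 15.0 to 30.7 on the left, all above the 8.78 to 12.0 of the control libraries.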

How the data were processed

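Per the labels and the study's methods, the authors used FastQC 0.11.9 for read quality, Trim Galore 0.6.4 for trimming, Bowtie2 for alignment to Zv9 and HTSeq 0.11.2 for counts per gene. The sources used here do not give the annotation release or the strand and multiple-alignment settings. The deposited raw counts were used for all tests. The deposited normalized score per library (counts over a size factor, rounded), the authors' group means, their fold ratio and its log2 value were not used.

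Counts were tested with edgeR 4.0.16 in R 4.3.3 (TMM, filterByExpr, condition as the only factor, quasi-likelihood test, Benjamini-Hochberg over the 20628 genes tested, calls at an adjusted p under 0.05), and with DESeq2 1.42.0. The SE is the log2 fold change over the root of the F statistic, and intervals use its t distribution. The scripts were tested on simulated data. Control 1 differed from control 2 and 3 by a chi-square per gene of 47.0 and 60.8, these 2 by 15.8 and the PEA pairs by 34.2 to 44.6, so no library was a repeat of another, and results without control 1 are given.

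Members, lists and alternatives were chosen with earlier results of these data known. Named genes are the members and the 4 lowest p of each list. The genes cd40lg, plcg2, rag1, nfkbiab, itk, csk, irf8, dntt, fkbp5 and the immunoglobulins were chosen after their values were seen. So were irf4b, cd74b, cd81a, lcp2a, itpr1a, the second CD22 row and the T and NK cell markers named by their lowest library. Lists were matched by name only, and Zv9 positions and sequences were not used here. Some genes of the lists are not reported here by name.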

Additional observations from a re-analysis of the deposited data

How the results depend on the processing

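Over 12 alternatives the count of members called and the count of pathway genes called stayed at 0. Over all genes it was 0 with size factors of DESeq2 in edgeR, with no low-count filter, with at least 10 counts in every library (which left pax5 untested) and with the library number as a replicate block, 5 with DESeq2, 1 with libraries 2 and 3 only (fkbp5), and 0 to 1 with each library left out, the 1 being zgc:163079 without control 3. The sample titles use the same numbers in both groups, and whether the numbers pair the libraries cannot be told here. Same-numbered PEA and control libraries deviated together with r of 0.17, -0.15 and 0.14 over genes. PEA 2 and PEA 3 correlated best with another number. With 3 libraries per group the deviations from a group mean are tied to each other, so these r neither show nor exclude a pairing. Of 41 named genes 31 kept their sign throughout, and in 33 leaving out 1 library moved the log2 fold change by over 1.5 times or turned it. With libraries 2 and 3 only, the log2 fold change was -0.12 for pax5, -0.18 for syk, 0.0066 for yes1, -0.15 for traf2a, -0.045 for plcg2 and -0.12 for itk. With each library left out it ran from -0.070 to 0.50 for pax5, -0.0049 to 0.33 for syk, -0.027 to 0.25 for traf2a, -0.19 to 0.00032 for traf6, -0.33 to 0.0090 for cd40lg, -0.0084 to 0.10 for plcg2, -0.13 to 0.017 for rag1, -0.12 to 0.14 for itk and -0.77 to 2.91 for fkbp5. The cause was not tested. Among the members, pax5 and cd79a had the fewest counts, 5 to 14 and 49 to 67.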

Other observations

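The genes whose levels ran most like the members were looked for among the 17347 other genes with a mean of at least 1 CPM. Likeness was Pearson's r over the 6 libraries between log2 CPM and the mean of the members' standardized levels, and it is given as a description, since 67 genes had an r over 0.9 and all share the same libraries. The highest were the cyclin gene ccnb3 (0.99), trim35-33 (0.99), ikbkg (0.98), which encodes the regulatory subunit of the kinase that activates NF-kB, cdkl1 (0.98) and nlgn4a (0.98). This r takes no account of the size of a difference. The 6 levels of ikbkg spanned only 1.07-fold, with a spread of 1.54 times that of counting noise. Among the members, r was highest among blnk, cd40 and pax5. Over the same 6 libraries r was 0.84 between blnk and cd40, 0.78 between pax5 and cd40 and 0.64 between pax5 and blnk, all with their lowest level in control 1, while btk had r of -0.21 to 0.43 with the other members. The values for pax5 rest on 5 to 14 counts per library, with a spread of 1.27 times that of counting noise. Its low point in control 1 was level with PEA 2 at 5 counts each, so its likeness to the others is uncertain. For cd79a r was 0.04 with cd40, 0.15 with blnk and -0.15 with pax5.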
